A study of Mus musculus with 7 samples.

Results

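The genes described here are 10 that encode calcium release and entry channels and their sensors: the ryanodine receptors Ryr1, Ryr2 and Ryr3, the inositol trisphosphate (IP3) receptors Itpr1, Itpr2 and Itpr3, the store sensors Stim1 and Stim2, and the entry channel subunits Orai1 and Orai2. They were chosen by name, as a functional family, with their values in the deposited tables already known, and each name matched 1 of the 39179 genes of the table for the replicated comparison. All 10 had a p there, and all 10 had a mean of 10 or more scaled counts, a unit in which each library's read count is divided by that library's size factor.

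The 7 libraries hold messenger RNA of regulatory T cells, sorted as CD4+, TCRb+, CD25hi and Foxp3+ cells from lymph nodes of C57BL/6 mice aged 3 weeks. Control mice of the 2 numbered control libraries are labelled Id2fl/+Id3fl/+Foxp3cre, and mice of the 3 numbered double-knockout (dKO) libraries Id2fl/flId3fl/flFoxp3cre, so both groups carry a Cre recombinase driven by Foxp3 and floxed alleles of Id2 and Id3, which encode inhibitors of E protein transcription factors. An unnumbered pair holds 1 library titled control and 1 titled dKO. The genotype tags of this pair say the opposite of its titles and sources. The titles are followed below, with the libraries called labelled control and labelled dKO. The labels do not say which animals each library came from, so the spread behind a p-value may be technical.

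In T cells, engagement of the antigen receptor activates phospholipase C, and the IP3 it makes opens IP3 receptors in the endoplasmic reticulum. The fall of calcium in that store is sensed by STIM proteins, which move to the plasma membrane and open ORAI channels, and the calcium that enters activates calcineurin and through it the NFAT factors. Ryanodine receptors are a related family of very large release channels, known best from skeletal muscle (Ryr1), heart (Ryr2) and brain (Ryr3). Deletion of Stim1 and Stim2 together is known to impair the development and function of regulatory T cells in mice.

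Facts of the libraries that bear on these genes were as follows. Scaled counts summed to about 38950000 in control and 39950000 in dKO, and control libraries had 1.32 times the depth of dKO libraries on average by the size factors recovered from low values. Id2 went from 783 scaled counts in control to 61.1 in dKO, and 18.6 FPKM (fragments per exon length and depth, made by Cuffdiff) in the library labelled control and 9.69 FPKM in the library labelled dKO, so in both comparisons it was lower where the title says dKO. Id3 had means of 1376 and 891 scaled counts (adjusted p 0.209 in the authors' deposited table), and in the pair it was higher in the library labelled dKO, at 221 FPKM against 160 FPKM. The defining transcripts of the sorted cells were present in both groups, among them Foxp3 (13481 and 10942 scaled counts in control and dKO) and Il2ra (32376 and 32127 scaled counts). Of the 8 markers of these cells, 1 was called, Ctla4, higher in dKO (13258 and 26706 scaled counts, log2 1.01, adjusted p 4.71e-05 in the authors' deposited table). Cd4, not called, was at 26431 and 32790 scaled counts. The 5 plasma cell markers summed to 3847 scaled counts in control and 6630 in dKO, mostly Xbp1 (3750 and 6388), and without it to 97.4 and 242. One of them was called, Prg2, at 2.47 and 81.7 scaled counts (adjusted p 4.62e-20 in the authors' deposited table). The others, Xbp1 among them, were not called. Igj was at 70.3 scaled counts in control and 133 in dKO, Sdc1 at 23.4 and 27.997, and Tnfrsf17, lower in dKO, at 1.24 and 0. Myeloid markers summed to 1155 and 1102. In a bulk library, fewer cells that express a gene and less RNA per cell cannot be told apart.

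The bases around the start of a gene are shown for the called genes that RefSeq's promoter table (GRCm38.p6) holds, because E proteins, the partners of Id2 and Id3, bind the E-box. That is the motif CANNTG, which reads the same on both strands and here stands in capitals. Each window runs from 250 bases before to 50 bases after the start, written in the direction of transcription, and all lie on GRCm38.
Ryr2, chr13:12106896-12107195, minus strand: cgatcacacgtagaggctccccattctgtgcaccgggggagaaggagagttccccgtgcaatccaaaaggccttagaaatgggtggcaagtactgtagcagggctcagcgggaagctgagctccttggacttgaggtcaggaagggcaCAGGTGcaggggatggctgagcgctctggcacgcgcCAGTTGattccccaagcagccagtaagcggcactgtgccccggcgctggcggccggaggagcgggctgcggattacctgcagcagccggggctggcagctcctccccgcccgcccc
Itpr2, chr6:146502174-146502473, minus strand: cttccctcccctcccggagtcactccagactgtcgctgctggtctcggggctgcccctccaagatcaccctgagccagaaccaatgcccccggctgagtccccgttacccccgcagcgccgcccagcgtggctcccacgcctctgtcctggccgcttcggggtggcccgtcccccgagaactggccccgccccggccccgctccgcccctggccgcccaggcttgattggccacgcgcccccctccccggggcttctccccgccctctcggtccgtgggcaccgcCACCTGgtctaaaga
Stim2, chr5:53998273-53998572, plus strand: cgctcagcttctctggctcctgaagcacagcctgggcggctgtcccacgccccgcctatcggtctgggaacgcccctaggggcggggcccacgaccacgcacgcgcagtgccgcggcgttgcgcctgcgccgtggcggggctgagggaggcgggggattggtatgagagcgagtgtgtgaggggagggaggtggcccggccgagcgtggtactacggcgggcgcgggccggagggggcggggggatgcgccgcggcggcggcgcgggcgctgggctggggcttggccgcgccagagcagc
The window of Ryr2 held 2 matches (CAGGTG and CAGTTG), that of Itpr2 held 1 (CACCTG) and that of Stim2 held 0. Among the 8 channel genes with a window in the table, Orai2 held the most matches, 4, and Ryr1 and Stim2 held none. A match was present in 72.3% of all 32851 windows of this length, 2 or more in 39.6% and 4 or more in 6.49% of them.

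Among these genes, Ryr2 was far lower in dKO than in control in the numbered libraries, while Stim2, Itpr2 and Ryr3 were higher. The other 6 lay between -0.24 and 0.14 on the log2 scale. By the authors' deposited table, 4 of the 10 genes had an adjusted p below 0.05, 3 higher and 1 lower in dKO. Of all 31641 genes tested, 6.56% passed (3.38% higher and 3.18% lower). The closer background is the 15436 whose mean reached 10, as it did for all 10 channel genes, and 13.3% of these passed. Because the channel genes were chosen with this comparison in view, their counts and p-values describe them and support nothing further. The median log2 ratio of the 10 genes was -0.07, and that of 15436 genes with a mean of at least 10 was -0.01.

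Ryanodine receptor 2 (Ryr2, ENSMUSG00000021313, chromosome 13, 11553103 to 12106945 on GRCm38, minus strand) had a mean of 2538 scaled counts over the 2 control libraries and of 24.7 over the 3 dKO libraries. The control mean was thus 103 times the dKO mean. In the authors' deposited table its log2 ratio was -6.68, with a raw p of 0.0005 and an adjusted p of 0.0106. Only 6 of these 15436 genes had a lower log2 ratio. Per kilobase of exon, Ryr2 went from 151 scaled counts, higher than 44.9% of these genes in control, to 1.47, higher than 0.907% of them in dKO.

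The deposited means narrow down what each library held, since each is a sum of whole reads divided by the size factors recovered from low values. For the control mean of Ryr2, 7 pairs of whole reads were possible, and they range from 65 reads in the deeper and 5489 in the shallower library to 6233 reads in the deeper and 251 in the shallower. As scaled counts, a control library could lie anywhere from 50.5 to 5025. For the dKO mean, 3 sets were possible, of 0, 40 and 26 reads, of 23, 27 and 17 reads, or of 46, 14 and 8 reads in the libraries ordered by depth. A dKO library therefore lay between 0 and 49.5 scaled counts. In no combination of these sets did a dKO library reach the lower control library, by a margin of about 1 scaled count at the closest. The sets are the same with the rounding tolerance widened 2 or 3 times, but 5 times the tolerance, tried after seeing the data, allows 6 dKO sets reaching 71.0 scaled counts, and the groups could then overlap. Which control library carried most of the Ryr2 reads, and how unequally, cannot be read from the means. Of the 73 genes whose mean was at least 300 with a log2 ratio of at least 2 in size in the authors' deposited table, 17 had a raw p as large as that of Ryr2 or larger.

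**Figure D1:**
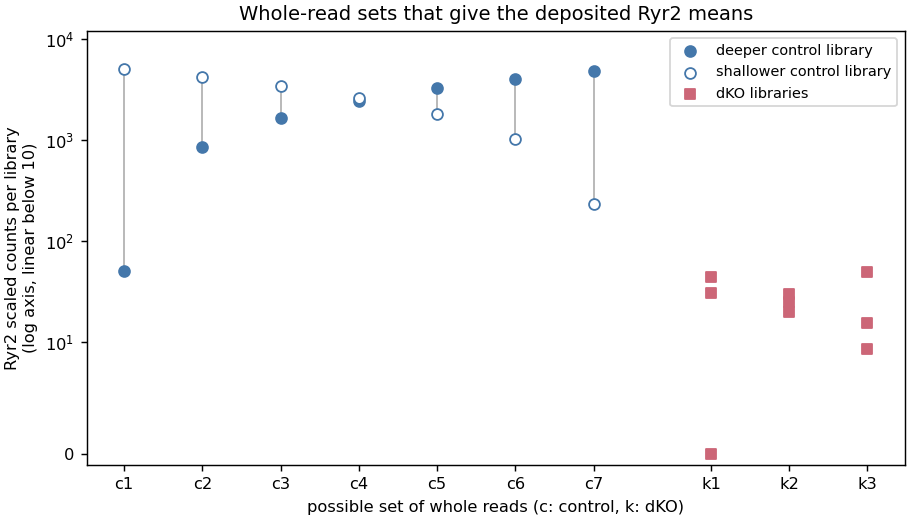
Each position on the x axis is a set of whole reads that gives the deposited Ryr2 mean, 7 sets for control (circles, the 2 control libraries joined by a line) and 3 for dKO (squares, the 3 dKO libraries). The y axis gives scaled counts per library on a log scale that is linear below 10. All dKO values lie at 49.5 or below and all control values at 50.5 or above, and the control libraries are nearly equal in 1 set and far apart in those at the ends.

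The unnumbered pair did not show this difference. Ryr2 had 2.19 FPKM in the library labelled control and 3.66 FPKM in the library labelled dKO, a log2 ratio of 0.55 with 1 FPKM added to each. With 1 library each there is no test of this ratio, and with the genotype tags in place of the titles its sign turns, to -0.55. Both values of the pair were closer to the numbered control than to the numbered dKO group: with the length in kilobases and the total scaled to that of FPKM, Ryr2 was at 3.87 in control and 0.0367 in dKO. The tables were normalized separately and with different gene models. Ryr2 made up 94.9% of the summed ryanodine receptor signal per kilobase in control, 90.3% of summed FPKM in the library labelled control and 89.0% in the library labelled dKO, but 11.3% in the numbered dKO group.

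Genes that overlap or neighbour Ryr2 had few reads or similar values in the groups. The table marks Ryr2 as confounded, as it does every other channel gene except Stim1 and Orai2. The gene that overlaps Ryr2 is the pseudogene Gm26956 (chromosome 13, 11939558 to 11940543, plus strand), with 1.24 scaled counts in control and 4.80 in dKO. The control mean of that pseudogene corresponds to 2 and 1 reads, and its dKO mean to 4, 6 and 3 reads. The nearest protein-coding gene on the same strand, Mtr, which encodes methionine synthase, had 1149 (control) and 1346 (dKO) scaled counts, and beyond it Actn2, a muscle actinin gene, had 139 and 151. The longest near-identical stretch that a protein-coding Ryr2 transcript shares with a transcript of another gene was 62 bases, and transcripts of 272 other genes held such a stretch of 50 bases or more. Among lists of other cell types that use this channel, the muscle markers Myh6 (2.93 and 2.58 scaled counts) and Ckm (2.68 and 2.96) were near 0 in control and dKO, and the 10 muscle markers summed to 1005 and 1873, mostly Ttn. The 6 neuron markers summed to 273 scaled counts in control and 149 in dKO, with Map2 at 199 and 49.8 (adjusted p 0.032 in the authors' deposited table) and Snap25 at 3.00 and 2.92. Without Map2, the other 5 summed to 73.5 and 98.9 scaled counts, with Gad1 at 23.4 and 50.02. The 6 mast cell and basophil markers summed to 118 and 25.2 scaled counts, nearly all of it Kit, with Mcpt8 at 0.3887 and 0. Whether such cells have a part in the Ryr2 difference was not tested.

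In control, Ryr3 and Ryr1 were far lower than Ryr2, and in the numbered dKO group both were above it per kilobase. Ryr3 (ENSMUSG00000057378, chromosome 2, 112631355 to 113217096, minus strand) had a mean of 105 scaled counts in control and 166 in dKO, with a log2 ratio of 0.66 and an adjusted p of 0.0407, as the authors' deposited table gives it. The control mean corresponds to 108 reads in the deeper and 137 in the shallower library, or 84.0 and 125 scaled counts, so the log2 ratio against each control library alone was 0.98 and 0.40. For the dKO libraries 48 sets of reads were possible, with values from 0 to 464 scaled counts, so whether the groups overlap cannot be read from the means. The end of Ryr3 overlaps that of Aven, a cell death inhibitor gene on the opposite strand with 2768 scaled counts in control and 2325 in dKO. The genes share 916 exon bases (4.83% of the exon bases of Ryr3) in GENCODE M21, and the sources used here do not give whether reads were counted by strand. Summed over both genes, the log2 ratio was -0.21, with most of the sum from Aven. In the pair, Ryr3 had 0.198 FPKM in the library labelled control and 0.388 FPKM in the library labelled dKO.

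Ryr1 (chromosome 7) had a mean of 33.7 in control, 42 reads in the deeper and 38 in the shallower library, and of 33.3 scaled counts in dKO. Its log2 ratio was -0.02 with an adjusted p of 1, as the authors' deposited table gives it. The pair held 0.0365 FPKM in the library labelled control and 0.0657 FPKM in the library labelled dKO. In the numbered dKO group, where Ryr2 was at 1.47 scaled counts per kilobase, Ryr3 at 9.38 was the ryanodine receptor with the highest level, at 72.1% of their sum.

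**Figure D2:**
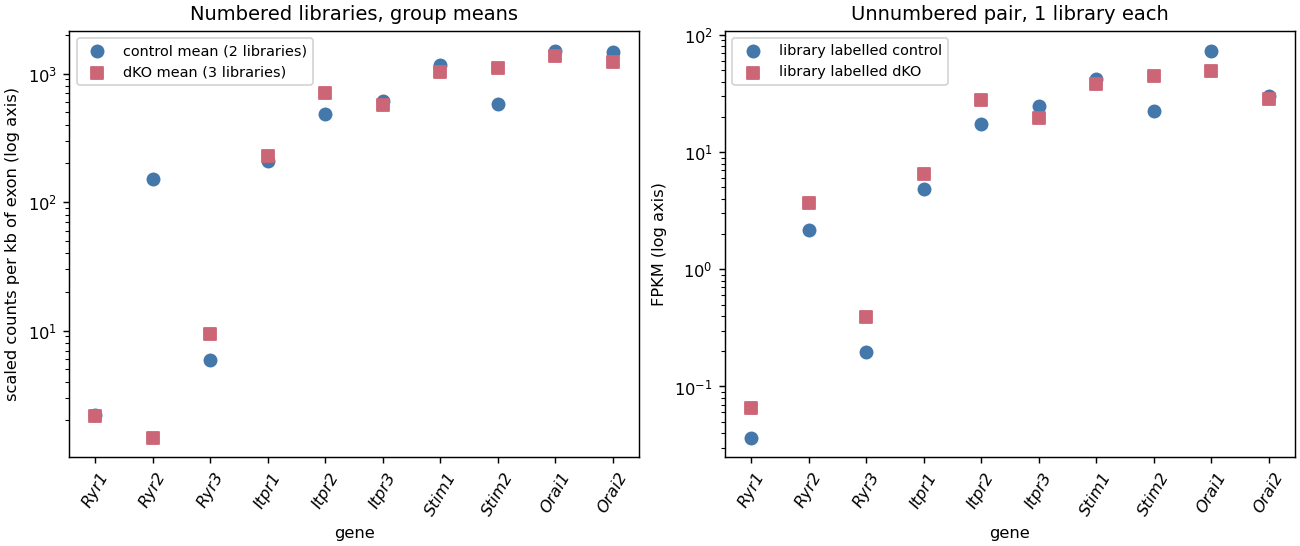
Level of each channel gene, in scaled counts per kilobase of exon for the means of the numbered control (circles) and dKO (squares) libraries on the left, and in FPKM for the 2 libraries of the unnumbered pair on the right, both on log axes. Ryr2 drops from 151 to 1.47 on the left and lies at 2.19 and 3.66 on the right, while Stim2 is below Stim1 in control and above it in dKO in both panels.

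Among the IP3 receptors, Itpr2 was higher in dKO, and Itpr1 and Itpr3 did not pass the test. Itpr2 (ENSMUSG00000030287, chromosome 6, 146108299 to 146502223, minus strand) had a mean of 6476 scaled counts in control and 9535 in dKO, 1.47 times the control mean. In the authors' deposited table its log2 ratio was 0.56 with an adjusted p of 0.0016. The pseudogene Gm15720, on the same strand within Itpr2, had 31.2 and 25.8 scaled counts in control and dKO. Itpr3 (chromosome 17) had 5538 and 5076 scaled counts (log2 -0.13), and Itpr1 (chromosome 6), the form most abundant in Purkinje neurons, 2049 and 2265 (log2 0.14), each with an adjusted p of 1, as the authors' deposited table gives it. Per kilobase of exon, the most abundant IP3 receptor was Itpr3 in control (616 scaled counts against 480 for Itpr2 and 208 for Itpr1) and Itpr2 in dKO (707 against 565 for Itpr3 and 230 for Itpr1).

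The same change of order was present in the pair. The library labelled control held 24.9 FPKM of Itpr3 and 17.3 FPKM of Itpr2, and the library labelled dKO 19.8 and 28.04 FPKM. The ratio of Itpr2 to Itpr3 was 0.780 in numbered control and 1.25 in numbered dKO, and 0.696 and 1.42 in the pair. In the pair, such a ratio lies within a library and does not depend on how libraries are scaled. In the numbered libraries it is a ratio of group means, in which the size factors weight the libraries. These means carry no spread, so the order of Itpr2 and Itpr3 within a group has no test. Both RefSeq entries of Itpr2 in the pair were higher in the library labelled dKO. One, whose transcript is 11679 bases long in GENCODE M21, went from 1.13 to 3.21 FPKM, and the other, of 8331 bases, from 16.2 to 24.8 FPKM.

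Stim2 was the channel gene with the smallest adjusted p. Stim2 (ENSMUSG00000039156, chromosome 5, 53998417 to 54121057, plus strand) encodes the store sensor known to respond to small losses of store calcium and to set resting calcium. It had a mean of 3013 scaled counts in control and 5708 in dKO, 1.89 times the control mean. The log2 ratio was 0.92 with an adjusted p of 1.89e-09, as the authors' deposited table gives it, and 836 of 15436 genes with a mean of at least 10 had a higher log2 ratio. In the pair, Stim2 had 22.3 FPKM in the library labelled control and 44.96 FPKM in the library labelled dKO, a log2 ratio of 0.98 with 1 FPKM added. The pseudogene Gm15820, on the opposite strand within Stim2, had 8.26 and 9.29 scaled counts in control and dKO.

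Stim1 (chromosome 7), the sensor that drives most store-operated entry in T cells, overlaps no other gene of the table. Its mean was 4174 scaled counts in control and 3700 in dKO, with a log2 ratio of -0.17 and an adjusted p of 0.798, as the authors' deposited table gives it. The pair held 42.5 FPKM in the library labelled control and 38.4 FPKM in the library labelled dKO. Per kilobase of exon, the ratio of Stim2 to Stim1 was 0.498 in control and 1.06 in dKO, and the same ratio in FPKM was 0.525 and 1.17 in the pair. The sensor with the higher level was thus Stim1 in the numbered control group and the library labelled control, and Stim2 in the numbered dKO group and the library labelled dKO. With the longest transcript in GENCODE M21 as length in place of the table's exon length, Stim1 was at 957 and Stim2 at 611 scaled counts per kilobase in control, and at 848 and 1157 in dKO.

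In the numbered libraries, the pore subunits had the highest levels per length of the channel genes, and they did not pass the test. Orai1 (chromosome 5), the subunit required for store-operated entry in T cells, had a mean of 3449 scaled counts in control and 3132 in dKO (log2 -0.14, adjusted p 1 in the authors' deposited table). Orai2 (chromosome 5), which can join Orai1 in one channel, had 5611 and 4761 (log2 -0.24, adjusted p 0.472 in the authors' deposited table). Per kilobase of exon, Orai1 was at 1507 and 1368 scaled counts and Orai2 at 1459 and 1238, so both were lower in dKO by values that the authors' test did not call. Orai1 had 73.6 FPKM in the library labelled control and 49.2 FPKM in the library labelled dKO. Orai2 had 30.2 and 28.6 FPKM in these libraries, below Stim1 in both and below Stim2 in the library labelled dKO. The Orai1 gene overlaps Kdm2b, a histone demethylase gene on the opposite strand, by 7 bases at their starts. Kdm2b went from 3792 to 5944 scaled counts, and in GENCODE M21 the exons of these genes share 0 bases.

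**Figure D3:**
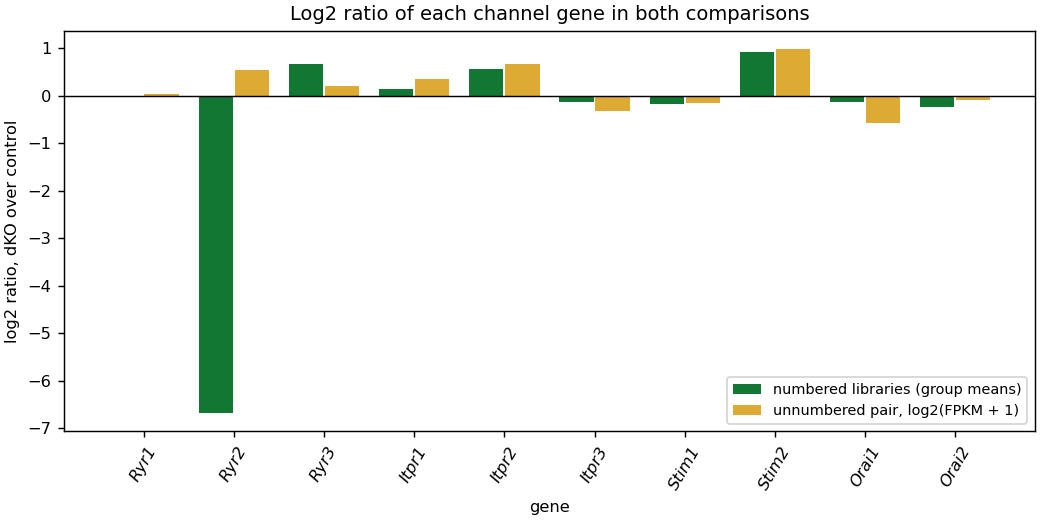
Log2 ratio of dKO over control for each channel gene, from the group means of the numbered libraries (dark bars) and from the unnumbered pair with 1 FPKM added (light bars). Bars point the same way for 8 of the 10 genes. Ryr2 is at -6.68 in the numbered libraries and at 0.55 in the pair, and Ryr1 is near 0 in both.

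Set side by side, the numbered libraries and the pair, which share no library, had the same sign of the log2 ratio for 8 of the 10 channel genes, with Ryr1 and Ryr2 as the exceptions. Over all 8048 genes with a mean of 10 or more and at least 5 FPKM in 1 library of the pair, 71.1% had the same sign, and 92.8% of the 1203 among them that the authors' deposited table called. Ryr1, Ryr2 and Ryr3 were below 5 FPKM in both libraries, and the other 7 channel genes all had the same sign. The log2 ratios of Ryr1 were near 0, at -0.02 in the numbered libraries and 0.04 in the pair. Of the 7 channel genes with at least 5 FPKM in 1 library, 0 changed by 2-fold or more with 1 FPKM added, beside 5.81% of 8705 genes. That count rests on the added value: Stim2 was 2.01-fold higher on the deposited FPKM and at a log2 ratio of 1.01 with 0.1 FPKM added, so that 1 of the 7 passed. The genotype tags of the pair, used as labels, would turn the sign of every one of its ratios.

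**Figure D4:**
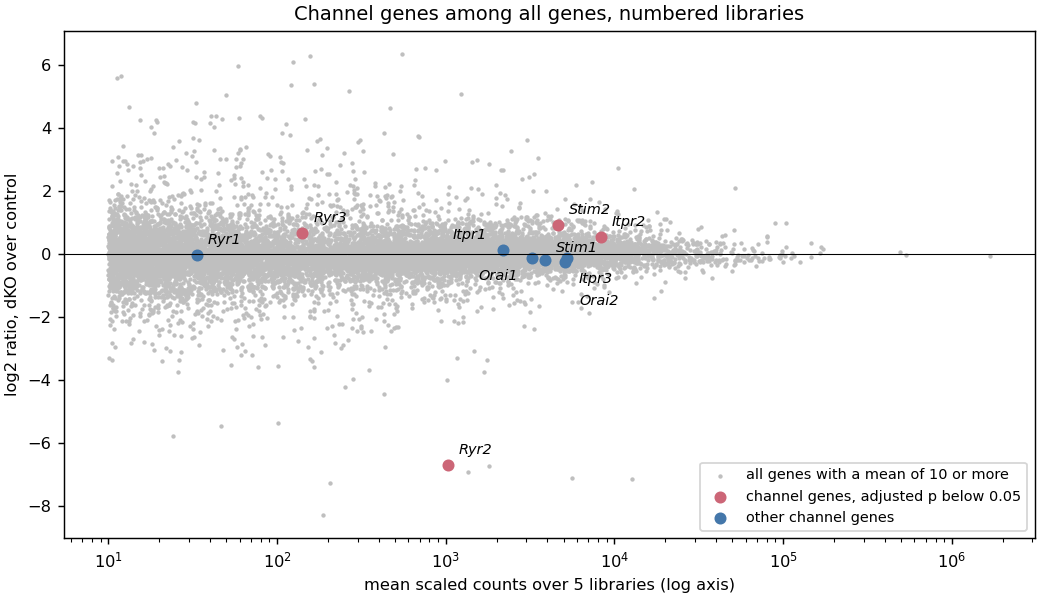
Log2 ratio of dKO over control against the mean over the 5 numbered libraries (log axis) for 15436 genes with a mean of at least 10 (grey). The 4 channel genes with an adjusted p below 0.05 and the other 6 are coloured. Ryr2 stands at -6.68 below nearly all genes of its level, and the other 9 lie between -0.24 and 0.92 within the bulk of the genes.

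Around these channels, 8 lists of other calcium genes held 145 genes with a p. By the authors' deposited table, 9 of them were higher, 14 lower and 122 were not called, so that 15.9% passed, beside 13.3% of all genes whose mean was at least 10 and 6.56% of all genes tested. Of 21 calcineurin and NFAT genes, the authors' deposited table calls 6 lower, 0 higher and leaves 15 uncalled. Ppp3ca, the gene of a catalytic subunit of calcineurin, went from 1824 to 999 scaled counts (log2 -0.87). Rcan3, of a family that inhibits calcineurin, went from 4115 to 2493 (log2 -0.72), Homer3, a scaffold that binds NFAT, from 219 to 123 (log2 -0.84), and Dyrk2, a kinase that phosphorylates NFAT, from 1464 to 1040 (log2 -0.49). The median log2 ratio of the 18 members with a mean of 10 or more was -0.10. In the pair, Ppp3ca had 19.6 FPKM in the library labelled control and 16.1 FPKM in the library labelled dKO, and Rcan3 28.4 and 18.6 FPKM, while Dyrk2 had 30.7 and 33.1 FPKM.

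Upstream of the release channels, of 16 genes of IP3 production and removal, the authors' deposited table calls 2 higher and 2 lower and leaves 12 uncalled. The shares over all genes tested were 3.38% higher and 3.18% lower, and 13.3% in either direction at a mean of 10 or more. Impa2, which frees inositol from its monophosphate, rose from 1211 to 2214 scaled counts (log2 0.87) and Inpp5a, which removes a phosphate from IP3, from 598 to 855 (log2 0.52). The phospholipase C genes Plcd1 and Plcb4 fell from 172 to 79.6 (log2 -1.12) and from 898 to 591 scaled counts (log2 -0.60). In the pair, Plcd1 did not follow, with 1.55 FPKM in the library labelled control and 1.69 FPKM in the library labelled dKO, and Plcb4 had 3.47 and 2.68 FPKM. Among 15 regulators of IP3 receptors, 1 passed, Ahcyl2, a relative of a protein that binds the IP3 site of these receptors, from 8531 to 16354 scaled counts (log2 0.94, adjusted p 2.12e-06 in the authors' deposited table). In the pair, Ahcyl2 had 51.3 FPKM in the library labelled control and 115 FPKM in the library labelled dKO.

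Of 18 partners of ryanodine receptors, 1 passed, beside 6.56% of all genes tested and 13.3% of those with a mean of 10 or more. Cd38, the enzyme that makes cyclic ADP-ribose, a messenger that acts on these receptors, fell from 838 to 280 scaled counts (log2 -1.58, adjusted p 1.74e-17 in the authors' deposited table). Unlike Ryr2, Cd38 was also lower in the library labelled dKO of the pair, with 2.14 FPKM against 8.39 FPKM. Among 18 calcium pumps and exchangers the plasma membrane pump gene Atp2b1 fell (log2 -0.47, adjusted p 0.0068 in the authors' deposited table). Of 13 other genes of store-operated entry 1 rose, Unc93b1, a chaperone of nucleic acid-sensing Toll-like receptors (log2 0.60, adjusted p 0.0143 in the authors' deposited table). In the list of mitochondrial calcium uptake 0 of 11 passed, with 1 gene at an unadjusted DESeq p below 0.05. Its most abundant genes there were Vdac2 (6103 and 6550 scaled counts in control and dKO) and Vdac1 (4754 and 5804), which encode outer membrane channels.

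Of 33 other calcium and potassium channel genes of lymphocytes, the authors' deposited table calls 5 higher and 4 lower and leaves 24 uncalled. Of all genes tested it calls 3.38% higher and 3.18% lower, and 13.3% in either direction of those with a mean of 10 or more. Among those called higher were Cacna1e, from 9.77 to 103 scaled counts (log2 3.39), and Cacna1d, from 181 to 615 (log2 1.77), which encode pores of voltage-gated calcium channels. P2rx7, a calcium-permeable channel opened by extracellular ATP, fell from 5870 to 3527 scaled counts (log2 -0.73). Kcna3, a potassium channel that keeps up the driving force for calcium entry, fell from 1748 to 1202 scaled counts (log2 -0.54). The potassium channel gene Kcnn4 of the same list went the other way (log2 0.55, adjusted p 0.0081 in the authors' deposited table). In the pair, P2rx7 had 55.4 FPKM in the library labelled control and 28.2 FPKM in the library labelled dKO, and Kcna3 37.0 and 16.7 FPKM.

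**Figure D5:**
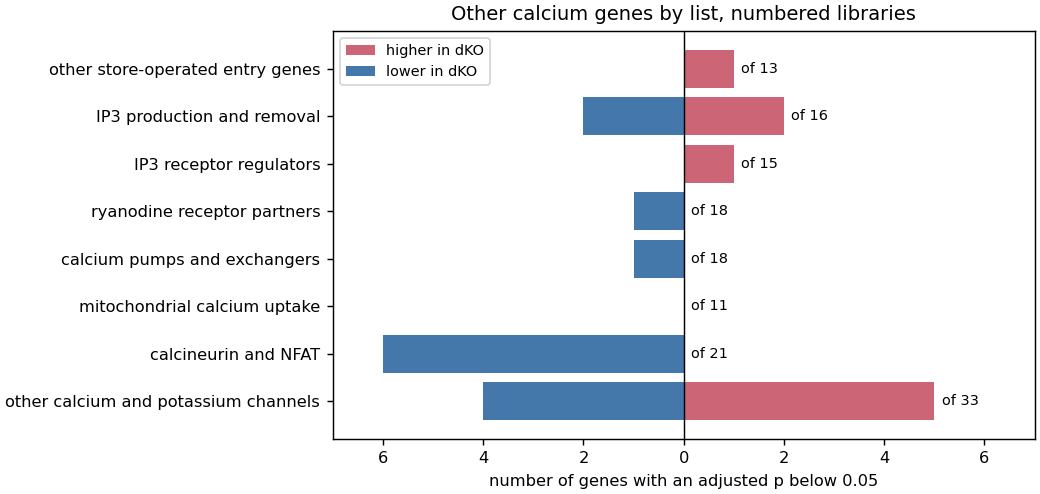
Number of genes of each list of other calcium genes with an adjusted p below 0.05 in the authors' deposited table, higher in dKO to the right and lower to the left. The number with a p stands beside each bar. The calcineurin and NFAT list has 6 lower and 0 higher of 21, and mitochondrial calcium uptake has none of 11.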

How the data were processed

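The deposited table of the replicated comparison gives 2 signal columns, which its header calls abundance: from the values, they are the authors' means of read counts over a size factor per library. The authors' log2 ratios and the deposited p-values, raw and Benjamini-Hochberg adjusted, were used as deposited. Per the submitters' processing notes, RSEM and DESeq were used on mm10 (GRCm38), without versions. FPKM values of the pair were made by the authors with TopHat 1.4.0 and Cuffdiff 0.0.6 on mm9, per the submitters' processing notes. Its coordinates are not printed.

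Tests on counts per library were planned, but the table holds group means, so the authors' test was used, with an adjusted p below 0.05, and no SD can be given. Size factors were recovered by least squares from low means: all 2749 distinct control means under 100 were whole reads within 7e-05 scaled counts. For means above 1000, 2 times this tolerance was used. The recovery was checked on simulated data, and the check that had to pass covered low means only. Its outcome for means as high as that of Ryr2 in control is not given here. For the pair, 27361 of 27901 entries (98.1%) matched a gene through RefSeq and GENCODE M21, FPKM was summed per gene and 1 FPKM added before log2. Near-identical stretches (50 bases or more, 98% identity) were sought with blastn 2.17.0. Python 3.11.15 was used.

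Members and lists were chosen with earlier results of these data known. Named are all 10 members, the genes that overlap a called member, and Kdm2b, Mtr and Actn2 as overlapping or neighbouring genes. Also named are up to 4 called genes of each list by adjusted p (with none called, the 2 with the highest mean), and Id2 and Id3. Further marker and channel genes, Cacna1a, Cacna1b, Cacna1c, Cacna1f, Cacna1s and Kcnn4 among them, were named after their values were seen. Other adjustments, scalings, pseudocounts and libraries left out were tried as alternatives.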

Additional observations from a re-analysis of the deposited data

Results flagged for a closer look

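Ryr2 was far lower in dKO in the numbered libraries, and the unnumbered pair did not show this difference. Its log2 ratio of dKO over control was -6.68 in the authors' deposited table. Each set of whole reads that fits the deposited means within rounding puts every dKO library below both control libraries. The closest values were 49.5 scaled counts in dKO and 50.5 in control. With 5 times the rounding tolerance the dKO sets reached 71.0 scaled counts, and the groups could then overlap. The share of all genes whose groups separate in this way is not given here. In the pair, named by titles, the log2 ratio was 0.55 with 1 FPKM added, from values below 5 FPKM in both libraries. The difference between these comparisons was not tested, since the pair has 1 library each, and the pair's genotype tags would turn its sign.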

How the results depend on the processing

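Of the 10 channel genes, 4 passed the authors' adjusted p below 0.05, 2 (Stim2 and Itpr2) below 0.01 and 0 when genes that overlap another gene were left out, which leaves only Stim1 and Orai2 to test. The count stayed at 4 with a threshold of 0.1 and when p was adjusted over the 15436 genes whose mean reached 10. Of 96 alternative log2 ratios, 85 moved by less than 1.5 times on the linear scale, 10 by more, and 1 called ratio reversed: Ryr3 summed with Aven, at -0.21. Of those 10, 4 are Ryr2 against 1 control library and 6 are ratios of the pair that turn sign with the genotype tags (Ryr2 -0.55, Stim2 -0.98, Itpr2 -0.67, Itpr1 -0.35, Itpr3 0.32 and Orai1 0.57). The sum of Ryr3 and Aven was mostly Aven, at 2768 and 2325 scaled counts in control and dKO against 105 and 166. Its sign therefore cannot tell how Ryr3 itself moved. Against 1 control library at a time, Ryr2 could lie from -7.67 to -1.03, depending on which set of reads is true. Over the other calcium lists, 11 genes in place of 9 were higher, and 14 remained the number lower, with either of these changes, and the store-operated entry list had 2 higher in place of 1. No paired analysis was possible because the replicated table holds group means, which carry no replicate numbers. Leaving out a dKO library, or a control library for the 7 IP3 receptor, STIM and ORAI genes, could not be run for the same reason. Depth limits Ryr1 in particular, with 42 and 38 control reads.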

Other observations

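The list of other channels holds 7 genes of voltage-gated calcium channel pores, grouped here after their values were seen. Of these 7, 4 were called higher in dKO, 1 lower and 2 were not called in the authors' deposited table. Of all genes tested, 3.38% were called higher and 3.18% lower, and 13.3% of those with a mean of 10 or more were called. Because these 7 were grouped after their values were seen, the counts describe them and support nothing further. Cacna1e, at 9.77 scaled counts, and Cacna1b had few counts in control. Besides Cacna1e and Cacna1d, the authors' deposited table calls Cacna1b (15.5 and 61.9 scaled counts in control and dKO, log2 1.998, adjusted p 0.0033) and Cacna1s (87.7 and 151, log2 0.78, adjusted p 0.0415) higher. Cacna1a was called lower in the authors' deposited table (434 and 283, log2 -0.62, adjusted p 0.0069). Cacna1c (6.06 and 13.7 scaled counts) and Cacna1f (8.14 and 9.66) were not called. In the pair, Cacna1d had 0.405 FPKM in the library labelled control and 2.33 FPKM in the library labelled dKO, and Cacna1e had 0.0127 and 0.178 FPKM.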
